A study of Mus musculus with 6 samples.

Results

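Bone matrix and bone cell genes, 9 in number, were followed in the proximal tibia of Longshanks mice, namely the osteocalcin genes *Bglap*, *Bglap2* and *Bglap3*, the matrix glycoprotein genes *Ibsp*, *Spp1*, *Dmp1* and *Mepe*, and *Sparc* and *Sost*. The members were chosen by name, by matching the Ensembl identifiers of the deposited table to gene symbols, and all 9 were found among the 47729 genes of the table. All 9 also passed the filter on low counts that left 19308 genes for testing. The libraries came from 3 mice of the line Longshanks 1 (LS1) and 3 mice labelled Control (ICR), all 14 days old and from different families of the same generation. LS1 is 1 of a pair of lines selected on tibia length for a given body mass, and its Control mice were bred at random from the same CD-1 stock. No treatment was given to either group. Both proximal epiphyses of a mouse were pooled into 1 sample, which held growth plate, metaphysis, articular cartilage, secondary ossification center and marrow together. Polyadenylated RNA was sequenced, and the comparison asks which transcripts of this mixed tissue differ between the selected and the random-bred line.

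Bone matrix is made by osteoblasts, which secrete type I collagen and a set of noncollagenous proteins that bind calcium, mineral and cells. Osteocalcin is a small protein of late osteoblasts whose glutamates are carboxylated with the help of vitamin K, so that it binds mineral, and the mouse carries it as a cluster of nearly identical genes. The small integrin-binding ligand, N-linked glycoproteins are acidic phosphoproteins encoded side by side, and most are made by osteoblasts, osteocytes, odontoblasts or hypertrophic chondrocytes. Sclerostin, the product of *Sost*, is made by osteocytes and inhibits Wnt signaling.

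The 3 osteocalcin genes lie on the minus strand of chromosome 3 in GRCm38, within chr3:88368616-88384464. *Bglap3* (ENSMUSG00000074489) spans 88368616 to 88372743, *Bglap2* (ENSMUSG00000074486) 88377736 to 88378699 and *Bglap* (ENSMUSG00000074483) 88383501 to 88384464. Their coding sequences from the GENCODE M21 transcripts are shown because their likeness limits how reads can be assigned among them. Each runs 5′ to 3′, and capitals mark the bases that differ from *Bglap*.
Bglap: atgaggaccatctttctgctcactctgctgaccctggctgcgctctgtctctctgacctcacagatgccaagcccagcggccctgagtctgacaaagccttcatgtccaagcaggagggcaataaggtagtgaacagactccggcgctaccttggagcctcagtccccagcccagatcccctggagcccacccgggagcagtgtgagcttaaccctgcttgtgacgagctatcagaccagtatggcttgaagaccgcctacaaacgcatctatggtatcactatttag
Bglap2: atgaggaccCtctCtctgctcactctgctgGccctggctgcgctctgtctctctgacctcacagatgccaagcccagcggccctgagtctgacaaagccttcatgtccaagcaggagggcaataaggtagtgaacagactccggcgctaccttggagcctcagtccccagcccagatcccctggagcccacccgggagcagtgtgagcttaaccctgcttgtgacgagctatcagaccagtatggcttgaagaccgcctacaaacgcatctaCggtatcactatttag
Bglap3: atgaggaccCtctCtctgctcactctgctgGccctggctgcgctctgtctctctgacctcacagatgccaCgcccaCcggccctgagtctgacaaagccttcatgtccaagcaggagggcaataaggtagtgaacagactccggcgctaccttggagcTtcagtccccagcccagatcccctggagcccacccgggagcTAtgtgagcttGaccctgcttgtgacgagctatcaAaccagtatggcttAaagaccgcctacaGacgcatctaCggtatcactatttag
Each coding sequence has 288 bases. *Bglap2* differed from *Bglap* at 4 bases (98.6% identity), *Bglap3* from *Bglap* at 13 (95.5%) and *Bglap3* from *Bglap2* at 9 (96.9%). The reads were paired-end and 35 to 50 bases long. Of the 50-base windows of the *Bglap* transcript, 74.7% occurred letter for letter in another osteocalcin transcript, against 88.2% for *Bglap2* and 24.0% for *Bglap3*. With 35-base windows these shares were 79.3%, 94.3% and 33.1%. *Bglap3* thus had the most sequence of its own and *Bglap2* the least. These shares treat each read alone, and a mate outside a shared stretch could still place its pair. Reads from the shared stretches can otherwise be split among the genes or left uncounted. Each osteocalcin gene's level is therefore uncertain, and the sum of the 3 genes was examined beside the single genes.

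*Dmp1*, *Ibsp*, *Mepe* and *Spp1* stand in this order on the plus strand of chromosome 5, after *Dspp*, the dentin sialophosphoprotein gene, and the 5 genes span chr5:104170712-104441050. *Dmp1* (ENSMUSG00000029307) encodes dentin matrix protein, *Ibsp* (ENSMUSG00000029306) bone sialoprotein, *Mepe* (ENSMUSG00000053863) matrix extracellular phosphoglycoprotein and *Spp1* (ENSMUSG00000029304) osteopontin. They share the tripeptide arginine-glycine-aspartate (RGD), by which matrix proteins bind integrins, and its codons are given here in capitals with 9 bases on either side.
Dmp1: agcgagtccAGGGGTGACaacccagat
Ibsp: ggggagcctCGTGGCGACacttaccga
Mepe: cttctagtgAGGGGAGATaatgatgtc
Spp1: cccaacggcCGAGGTGATagcttggct
The arginine codon was codon 350 in *Dmp1*, 293 in *Ibsp*, 183 in *Mepe* and 145 in *Spp1*, counted from the start codon of the longest GENCODE M21 coding sequence. The codons themselves differed among the 4 genes. No in-frame RGD codons were found in the osteocalcin genes, *Sparc* or *Sost*. *Sparc* (ENSMUSG00000018593, osteonectin, a collagen- and calcium-binding protein) lies at chr11:55394500-55423183 and *Sost* (ENSMUSG00000001494) at chr11:101962458-101967015, both on the minus strand.

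The libraries held 68803249 to 88745366 reads, and a tested gene needed a mean of 20. On the first principal component, with 35.1% of the variance, the value of LS1 replicate 3 was -4.29, between the other LS1 libraries (43.7 and 50.1) and the Control libraries (-41.5 to -22.1). Values that change by more than 1.5 times without this library are also given without it.

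Compared per kilobase of exon, *Sparc* had the highest level of the 9 genes in every library, and *Sost* had the lowest mean in both groups. In LS1 replicates 2 and 3 the values of *Bglap2* and *Bglap3* were below that of *Sost*. In Control, *Sparc* had 489261 ± 23073 normalized counts per kilobase (SD, n = 3), and it ranked 3 among the tested genes. *Spp1* followed with 245176 ± 29959, and the Control ranges of these genes did not overlap. *Bglap* (85559 ± 10108) and *Ibsp* (77946 ± 19093) came next with overlapping ranges in Control. In LS1 their order was the other way round, with 43939 ± 21214 for *Bglap* and 100752 ± 23373 for *Ibsp*. *Dmp1* had 24198 ± 4215 normalized counts per kilobase in Control, below every Control value of *Ibsp*. *Bglap2*, *Bglap3*, *Mepe* and *Sost* lay between 2848 and 5449 on this scale, where the ranges of *Bglap2* and *Bglap3* overlapped, as did those of *Mepe* and *Sost*. The lengths are the exons of all annotated transcripts of a gene merged, and those of *Bglap3* hold alternative first exons, which lowers its value per kilobase. The defining genes of osteoblasts and osteocytes, as well as the cartilage collagen gene *Col2a1*, were read in every library.

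The osteocalcin genes had lower mean levels in LS1 than in Control, and the difference was largest in LS1 replicate 3. *Bglap*, with the most counted reads of the 3 genes, had 57751, 55041 and 45834 normalized counts in Control replicates 1, 2 and 3. The LS1 replicates had 31971, 37175 and 12317. Every LS1 library lay below every Control library, which held for 8.94% of all tested genes. The means were 52875 ± 6247 and 27154 ± 13110 (SD, n = 3 mice each), so LS1 was at 51.4% of Control, and the log2 fold change was -1.10 (standard error 0.42, 95% interval -2.12 to -0.09). The adjusted p of limma was 0.350, which did not pass the threshold of 0.05.

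*Bglap3*, also called osteocalcin-related protein gene and known for its expression outside bone, also separated the groups. Its normalized counts were 12827, 16575 and 12672 in Control and 7562, 7996 and 3196 in LS1, again without overlap. The means were 14025 ± 2210 and 6251 ± 2655 (SD, n = 3), with a log2 fold change of -1.27 (standard error 0.35, 95% interval -2.10 to -0.44) and an adjusted p of 0.258 from limma. The paper lists *Bglap3* as lower in LS1 among the genes that its own DESeq2 analysis of these libraries found. The study picked *Bglap3* from there for its qPCR work, so its direction here is no independent evidence. That qPCR used growth plates of mice from a later generation, and the paper found *Bglap3* significantly lower in LS1. For the other Longshanks line it describes a similar direction without significance. It also states that this assay varied widely in all wells, perhaps through a defect of the plates. The qPCR values were not examined here. Among the 3 genes, *Bglap2* had the fewest reads, with 2504, 3151 and 2044 normalized counts in Control and 2232, 1355 and 456 in LS1. The groups overlapped through LS1 replicate 1, and the fit gave a log2 fold change of -1.18, with a standard error of 0.61 and a 95% interval of -2.70 to 0.34 (adjusted p = 0.483). In this bulk tissue, fewer cells of a type and less RNA per cell cannot be told apart.

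**Figure D1:**
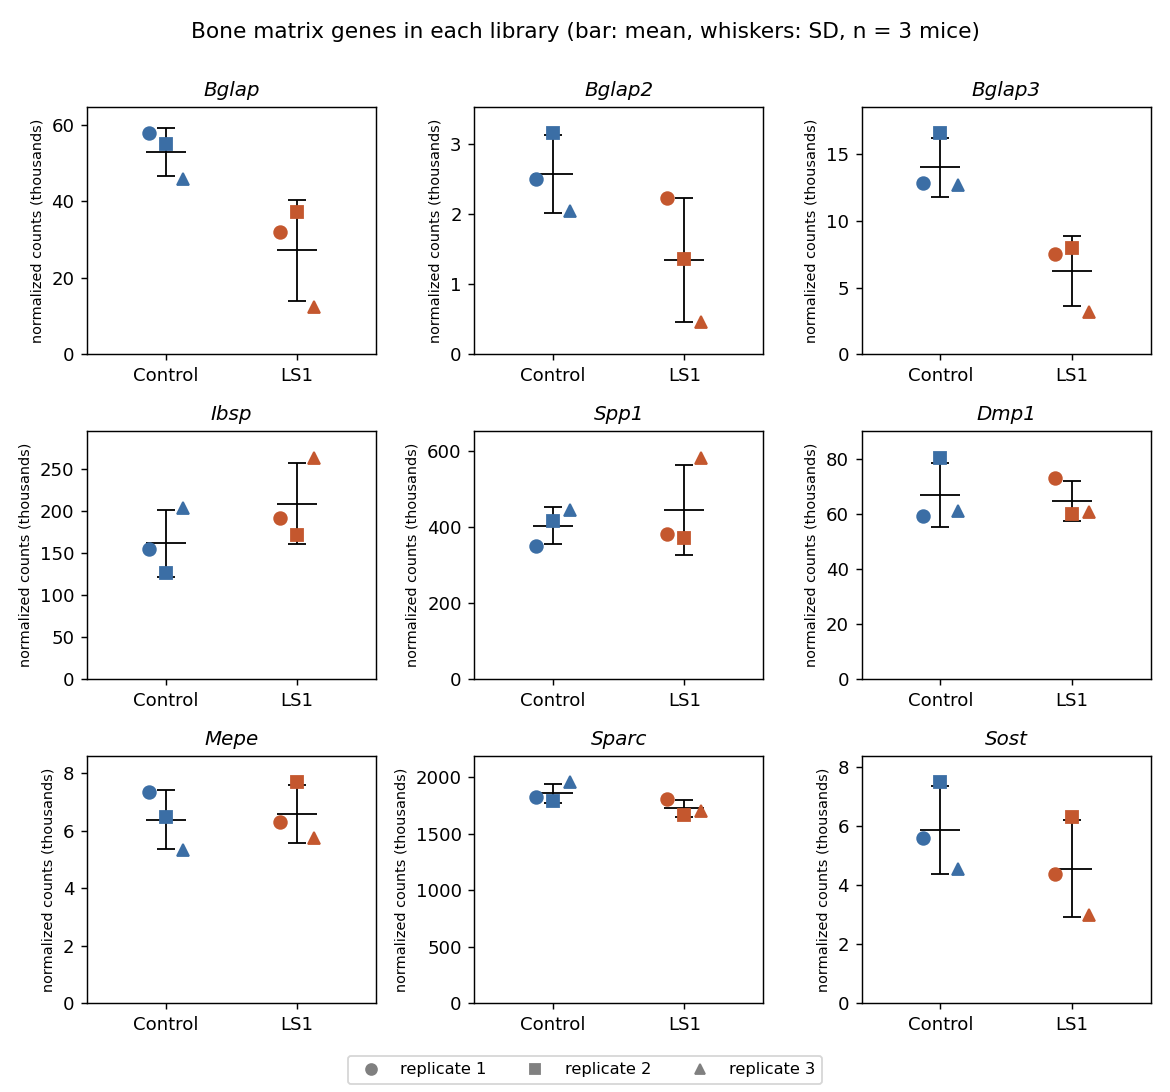
Normalized counts divided by 1000 (y axis, from 0) of the 9 genes in each library, with Control in blue and LS1 in orange, marker shapes for replicates 1 to 3, horizontal bars for means and whiskers for the SD (n = 3 mice). *Bglap* and *Bglap3* are the 2 genes in which all LS1 libraries sit below all Control libraries, and LS1 replicate 3 is the lowest library of both. Of all tested genes, 8.94% separate in this way.

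The choice of test decided whether the osteocalcin genes passed. With limma, 0 of the 9 genes were called at an adjusted p under 0.05, where 0.0725% of all tested genes were called, and 2 of 9 (*Bglap* and *Bglap3*) had an unadjusted p under 0.05, against 12.9% of all. With edgeR on the recovered reads, 0 of 9 were called as well, against 0.0363% of all tested genes, and 2 of 9 had an unadjusted p under 0.05, against 13.2% of all. With DESeq2 on the same reads, 2 of 9 were called against 2.38% of all tested genes. *Bglap* had a log2 fold change of -0.97 there (adjusted p = 0.0448) and *Bglap3* one of -1.17 (adjusted p = 0.00345). Without LS1 replicate 3, limma called 1 of 9, against 1.68% of all tested genes. That gene was *Bglap3*, with a smaller log2 fold change of -0.84 and an adjusted p of 0.0226, while *Bglap* was at -0.61 (adjusted p = 0.0879) and *Bglap2* at -0.54 (adjusted p = 0.285).

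The sum of the 3 osteocalcin genes does not depend on how reads were split among them, as long as they were counted once. It was 73083, 74766 and 60550 normalized counts in Control and 41765, 46526 and 15969 in LS1. The LS1 libraries were at 60.1%, 67.0% and 23.0% of the Control mean, so LS1 replicates 1 and 2 were close to each other and replicate 3 was far lower. The means were 69466 ± 7767 in Control and 34753 ± 16441 in LS1 (SD, n = 3), a difference of -1.14 on the log2 scale. The exact two-sided permutation test gave p = 0.1, the smallest value that 3 against 3 libraries allow. Without LS1 replicate 3 the difference was -0.65.

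The makeup of the sum, as counted, was similar in both groups. How reads from the shared stretches were counted is not known, so these shares need not give the true mix of transcripts. *Bglap* took 79.0%, 73.6% and 75.7% of the reads of the 3 genes in Control and 76.5%, 79.9% and 77.1% in LS1. *Bglap3* took 17.6%, 22.2% and 20.9% in Control and 18.1%, 17.2% and 20.01% in LS1. *Bglap2* took 3.43%, 4.21% and 3.38% in Control and 5.34%, 2.91% and 2.86% in LS1. The groups overlapped for each gene, and the differences of the mean shares were 1.75, -1.78 and 0.03 percentage points (exact two-sided permutation p = 0.4, 0.3 and 1.0 for *Bglap*, *Bglap3* and *Bglap2*, 0.1 being the smallest possible). LS1 replicate 3, with the lowest sum, had shares within the range of the other libraries for *Bglap* and *Bglap3*, and its *Bglap2* share was the lowest of the 6. Without this library the difference of the mean *Bglap2* share was 0.46 percentage points.

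**Figure D2:**
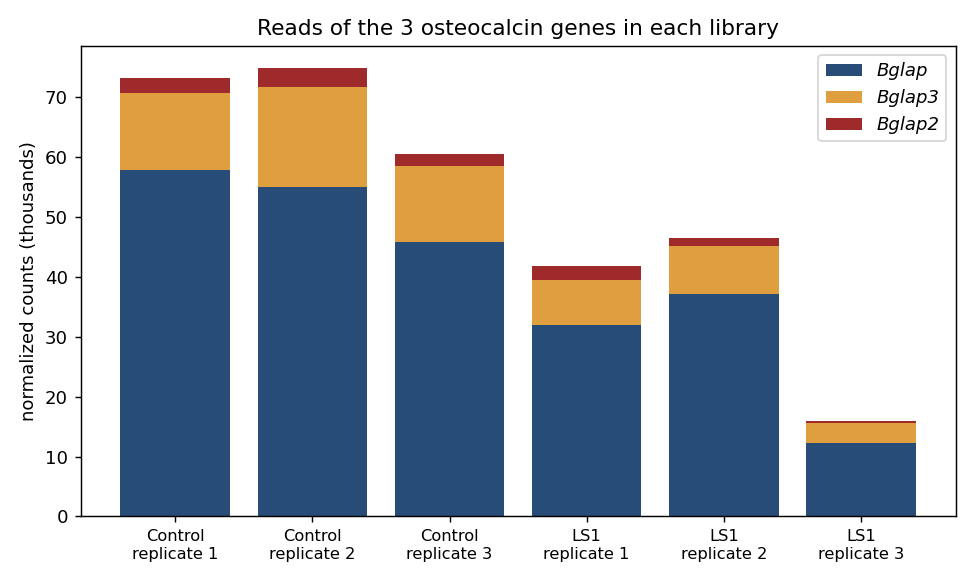
Stacked bars of the normalized counts divided by 1000 (y axis) of *Bglap*, *Bglap3* and *Bglap2* in each of the 6 libraries (x axis). The total falls between 60550 and 74766 in the Control libraries and between 15969 and 46526 in the LS1 libraries, and *Bglap* makes up 73.6% to 79.9% of each bar.

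The glycoprotein genes of chromosome 5 did not share this pattern. *Ibsp*, whose product nucleates mineral and which hypertrophic chondrocytes also express, had 154282, 125620 and 203675 normalized counts in Control and 190905, 171165 and 262992 in LS1. The groups overlapped, because Control replicate 3 was above LS1 replicates 1 and 2. This gave a log2 fold change of 0.37, with a standard error of 0.20 and a 95% interval of -0.08 to 0.82 (adjusted p = 0.469 from limma). The value was 0.19 without LS1 replicate 3, 0.21 without Control replicate 2 and 0.56 without Control replicate 3. *Spp1*, which inhibits crystal growth and anchors osteoclasts to bone, had 349508, 416949 and 445691 normalized counts in Control and 382384, 371848 and 582454 in LS1. Only LS1 replicate 3 lay above Control, and the fitted log2 difference was 0.12 with a 95% interval of -0.30 to 0.53 (limma, adjusted p = 0.829). Without LS1 replicate 3 it was -0.09, and without Control replicate 1 it was 0.02.

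*Dmp1* and *Mepe*, which osteocytes express and which act on phosphate handling and mineralization, had nearly equal group means. *Dmp1* had 59314, 80299 and 61040.2 normalized counts in Control and 73088, 59969 and 60682 in LS1. The log2 fold change was -0.04, with a 95% interval of -0.39 to 0.30 (adjusted p = 0.934 from limma). *Mepe* had 7347, 6493 and 5331 normalized counts in Control and 6317, 7687 and 5752 in LS1, with a log2 fold change of 0.05 and a 95% interval of -0.31 to 0.40 (adjusted p = 0.932 from limma). Without LS1 replicate 3 the log2 fold change was -0.0009 for *Dmp1* and 0.14 for *Mepe*. For both genes the libraries of the groups lay in mixed order. Their intervals leave out the fitted value of *Bglap* (-1.10) but overlap its interval of -2.12 to -0.09. No test compared these genes with *Bglap*. *Dspp*, the dentin sialophosphoprotein gene in the same cluster, had only 19.1 to 62.6 normalized counts (adjusted p = 0.954 from limma). That is far under its neighbours, whose lowest single value was 5331.

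*Sparc* was the most even of the 9 genes, with a coefficient of variation of 4.72% in Control and 4.35% in LS1. Its normalized counts were 1820976, 1786702 and 1952283 in Control and 1807889, 1665105 and 1697196 in LS1, with overlap through LS1 replicate 1. The fitted log2 difference was -0.10 with a 95% interval of -0.40 to 0.19 (limma, adjusted p = 0.775). *Sost* had 5599, 7494 and 4559 normalized counts in Control and 4400.4, 6302 and 3014 in LS1. LS1 replicates 1 and 3 lay below Control and replicate 2 within it, and the fitted log2 difference was -0.40 (standard error 0.27) with a 95% interval of -1.01 to 0.22 (limma, adjusted p = 0.567). The value was -0.13 without LS1 replicate 3, -0.21 without Control replicate 2 and -0.66 without LS1 replicate 2.

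**Figure D3:**
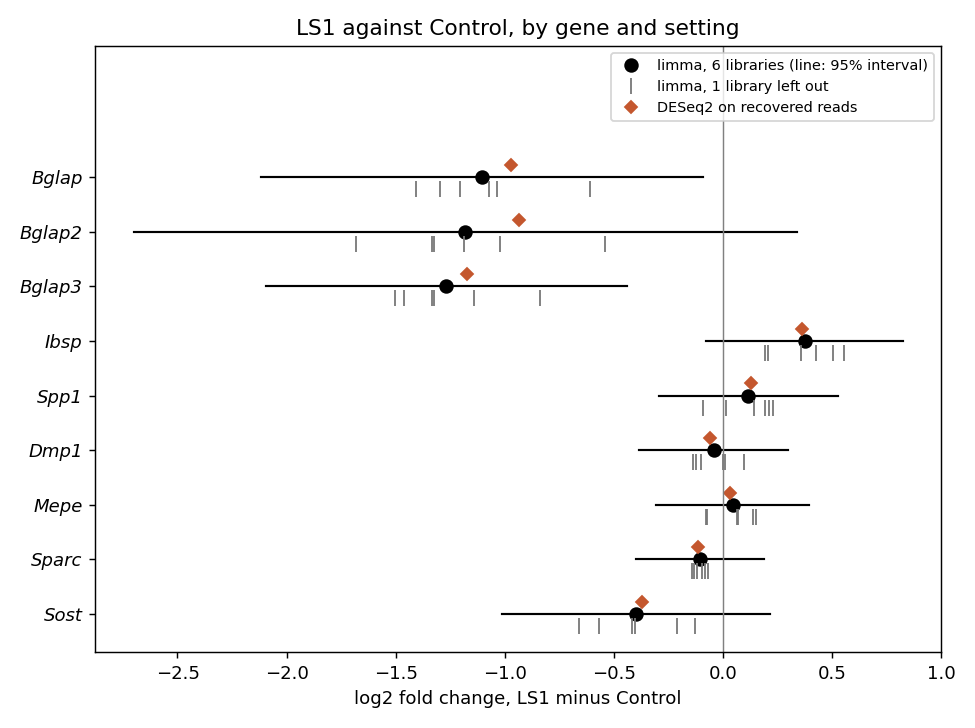
Log2 fold change of LS1 against Control (x axis) for the 9 genes (y axis), with the limma value from all 6 libraries as a black point, its 95% interval as a line, the limma values with 1 library left out as grey ticks and the DESeq2 value as an orange diamond. The 3 osteocalcin genes lie between -1.27 and -1.10. Their values stay below 0 in every setting drawn, as do those of *Sparc* and *Sost*, and those of *Ibsp* stay above 0. Ticks of *Spp1*, *Dmp1* and *Mepe* fall on both sides of 0.

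Over the 9 genes, the LS1 libraries lay below every Control library in 2 (*Bglap* and *Bglap3*), against 8.94% of all tested genes. They lay above every Control library in 0 of 9, against 10.3% of all.

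The bone content of the samples can differ, so the genes were also set against the type I collagen genes of the same library. *Col1a1* and *Col1a2*, the main bone collagen transcripts, had log2 fold changes of -0.19 each (adjusted p = 0.616 and 0.640 from limma). Relative to their mean, the osteocalcin sum was lower by 0.95 on average in LS1 on the log2 scale. It amounted to 28.8, 28.6 and 20.1 per 1000 of bone collagen in Control and 16.5, 22.2 and 6.23 in LS1, so the groups overlapped here through Control replicate 3 and LS1 replicate 2 (exact two-sided permutation p = 0.2). Without LS1 replicate 3 the difference was -0.41 (p = 0.4 by the same exact test), and against the median of the osteoblast markers in place of collagen it was -1.24 (exact p = 0.1). *Bglap3* alone amounted to 5.05, 6.34 and 4.20 in Control and 2.99, 3.82 and 1.25 in LS1, without overlap (log2 difference -1.08, exact permutation p = 0.1, 0.36 after adjustment over the 9 genes). Without LS1 replicate 3 this difference of *Bglap3* was -0.60. How many of all tested genes lack overlap relative to collagen was not examined. *Bglap* differed by -0.92 and *Bglap2* by -0.996 (exact permutation p = 0.2 each), and by -0.37 and -0.30 without that library.

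*Ibsp* had a difference of the opposite sign on this scale. It amounted to 60.8, 48.1 and 67.5 per 1000 of bone collagen in Control and 75.5, 81.7 and 102.6 in LS1. Every LS1 library was thus above every Control library, whereas the groups overlapped without this scaling. The share of all tested genes that separate in this way relative to collagen was not examined. The log2 difference was 0.56 (exact two-sided permutation p = 0.1, 0.36 after adjustment over the 9 genes), and it was 0.27 (p = 0.2 by the same test) against the median of the osteoblast markers in place of collagen. *Spp1* differed by 0.30, *Mepe* by 0.23, *Dmp1* by 0.14, *Sparc* by 0.08 and *Sost* by -0.21, all with overlapping groups and exact permutation p-values of 0.2 to 0.8. Without LS1 replicate 3, *Spp1* was at 0.15, *Mepe* at 0.38, *Dmp1* at 0.24, *Sparc* at 0.14 and *Sost* at 0.11. Against the median of the osteoblast markers, *Spp1* was at 0.01 (exact permutation p = 1.0) and *Sost* at -0.50 (exact permutation p = 0.5).

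The ratio of *Ibsp* to the osteocalcin sum, chosen after the values were seen and therefore given without a test, was 1.08, 0.75 and 1.75 in Control and 2.19, 1.88 and 4.04 in LS1 on the log2 scale. The ratio of *Spp1* to the osteocalcin sum was 2.26, 2.48 and 2.88 in Control and 3.19, 2.999 and 5.19 in LS1. In both ratios LS1 replicate 3 was the highest, since it had the lowest osteocalcin sum and the highest *Ibsp* and *Spp1* of all libraries.

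**Figure D4:**
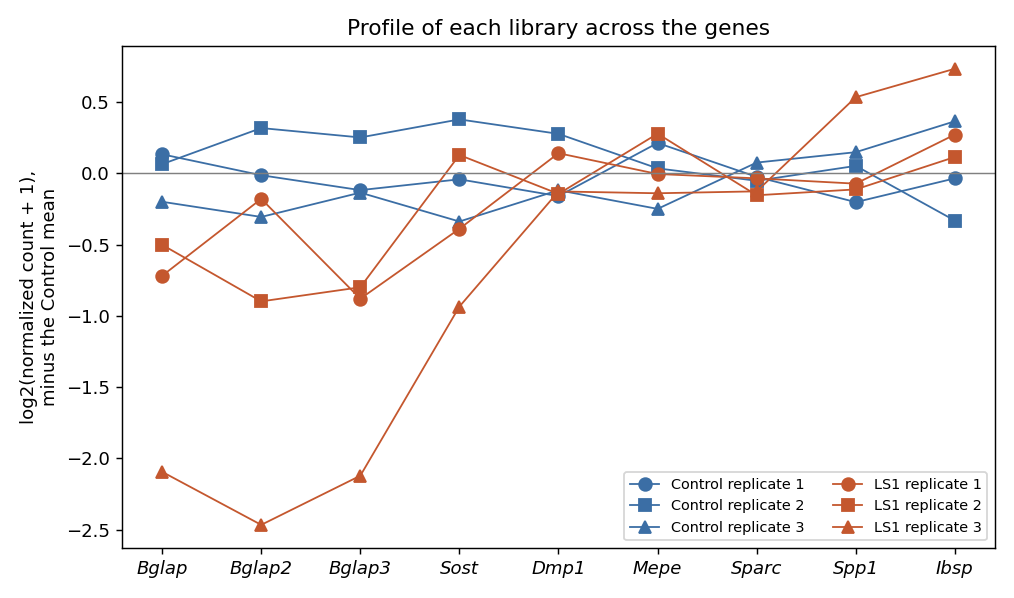
Each library's log2(normalized count + 1) minus the Control mean (y axis) for the 9 genes (x axis), with lines joining the genes of 1 library, Control in blue and LS1 in orange. LS1 replicate 3 lies at -2.09 for *Bglap*, -2.47 for *Bglap2* and -2.12 for *Bglap3*, at -0.93 for *Sost*, and at 0.54 for *Spp1* and 0.73 for *Ibsp*, while its *Sparc*, *Dmp1* and *Mepe* are within 0.14 of the Control mean.

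The 2 osteocalcin genes without overlap had the most similar patterns across the libraries, and their upstream sequences are shown for that reason. Both are the 250 bases before the first RefSeq start site in GRCm38.p6, minus strand, written 5′ to 3′ with the matches to the searched motifs in capitals. The windows are chr3:88384467-88384716 for *Bglap* and chr3:88372742-88372991 for *Bglap3*.
Bglap: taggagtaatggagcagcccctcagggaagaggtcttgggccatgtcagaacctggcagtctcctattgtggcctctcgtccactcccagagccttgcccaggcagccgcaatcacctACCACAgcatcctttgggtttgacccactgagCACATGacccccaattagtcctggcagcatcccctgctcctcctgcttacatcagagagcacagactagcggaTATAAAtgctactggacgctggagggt
Bglap3: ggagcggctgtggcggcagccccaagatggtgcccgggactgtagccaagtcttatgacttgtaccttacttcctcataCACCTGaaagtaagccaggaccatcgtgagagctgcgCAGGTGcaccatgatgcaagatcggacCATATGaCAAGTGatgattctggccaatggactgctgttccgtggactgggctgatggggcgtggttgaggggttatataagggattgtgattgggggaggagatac
Both strands were searched for the RUNX motif, spelled AACCACA. The shorter RUNX core, ACCACA, lies within that motif and was added after the sequences were seen. The TATA box was searched as TATAAA. The E-box was searched as CANNTG. The *Bglap* window holds the RUNX core 132 bases, an E-box 100 bases and a TATA box 27 bases before the start. The *Bglap3* window holds 4 E-boxes and none of the other motifs as spelled here. Only these spellings were searched, so the absence of TATAAA does not show that a TATA box of another spelling is absent. *Bglap3* also has RefSeq start sites nearer its coding sequence, whose windows are not printed. Of 32851 promoter windows of this length, 4.40% hold the RUNX motif, 14.0% its core, 12.4% the TATA box and 66.2% an E-box. Among the other genes, the RUNX motif occurs 129 bases before the first start site of *Spp1* and 165 bases before the second start site of *Dmp1*, and the RUNX core also occurs 118 and 80 bases before the start site of *Mepe*. A TATA box occurs 28 bases before the start of *Ibsp*, 173 before that of *Mepe* and 211 before the first of *Spp1*. RefSeq promoter entries were matched for 8 of the 9 genes, all but *Bglap2*. These matches describe letters in a window and say nothing of binding.

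Other genes of bone formation were taken from lists, and none of their members passed the adjusted threshold of limma. Among 14 osteoblast markers, 9 had a positive and 5 a negative log2 fold change, with a median of 0.06, against a median of 0.0054 over all tested genes. The largest values were 0.37 for *Ifitm5*, which late osteoblasts express, and 0.35 for *Lox*, which crosslinks collagen. The lowest were -0.26 for the potassium channel gene *Kcnk2* and -0.19 for *Col1a1*. The median of this list was near 0, and LS1 replicate 3 had the highest list median of the 6 libraries (0.14 relative to Control). Some of the listed genes also stand in the list of hypertrophic chondrocyte markers. What the list median says of the number of osteoblasts was not tested.

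Among 13 osteocyte markers the median was 0.29, with 9 positive and 4 negative values. *Tnfrsf11b*, which encodes the osteoclast inhibitor osteoprotegerin, had 1841 ± 205 normalized counts in Control and 2730.0 ± 484 in LS1 (SD, n = 3), a log2 fold change of 0.56 (adjusted p = 0.251 from limma). *Irx5*, a transcription factor gene, was at 0.45. The lowest values were -1.08 for *Fgf23*, the phosphate-regulating hormone gene, at only 43.5 ± 33.4 normalized counts in Control and 17.2 ± 6.19 in LS1, and -0.18 for *Zfhx4*.

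Among 13 tested mineralization genes the median was 0.00, with 7 positive and 6 negative values, and *Ahsg* was not tested for its low counts. *Slc20a1*, a phosphate transporter gene, was at -0.45 (adjusted p = 0.284 from limma) and *Fam20c*, which encodes the kinase that phosphorylates the chromosome 5 glycoproteins, at -0.23 (adjusted p = 0.484 from limma). *Phex*, a regulator of phosphate, was at 0.29 and *Vkorc1*, of the vitamin K cycle that osteocalcin carboxylation needs, at 0.28.

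Regulators known to act on osteocalcin or bone sialoprotein had a median of 0.07 over 17 tested genes, with 12 positive and 5 negative values. *Runx2*, the transcription factor gene required for osteoblasts, had 7165 ± 956 normalized counts in Control and 10733 ± 984 in LS1 (SD, n = 3), without overlap. The difference was 0.59 on the log2 scale, with a standard error of 0.14 (limma, adjusted p = 0.185), opposite in sign to *Bglap*. *Msx2* was at 0.82 with few counts (27.3 ± 12.3 and 44.9 ± 1.75). *Vdr*, the vitamin D receptor gene, was at -0.34 (adjusted p = 0.324 from limma) and *Dlx3* at -0.11, and *Twist2* was not tested.

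Receptors and partners of the matrix proteins had a median of 0.14 over 14 tested genes, with 12 positive and 2 negative values. *Itga8*, an integrin subunit gene, was at 0.59 (adjusted p = 0.310 from limma), and *Cd44*, which encodes a receptor of osteopontin and hyaluronan, at 0.39 (adjusted p = 0.267 from limma). *Itgb3*, the integrin subunit of osteoclasts, was at -0.40 and *Itgb5* at -0.02. Among these, *Gprc6a* and *Gpr158*, genes of receptors proposed for osteocalcin, had too few reads to be tested.

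Relatives of the 9 genes had a median of 0.22 over 9 tested genes, with 7 positive and 2 negative values. *Sostdc1*, the sclerostin relative, had 32.6 ± 10.5 normalized counts in Control and 90.9 ± 16.2 in LS1 (SD, n = 3), a log2 fold change of 1.49 (adjusted p = 0.194 from limma). *Spock1*, a *Sparc* relative, had 136 ± 4.16 and 304.0 ± 48.3, a log2 fold change of 1.14 (adjusted p = 0.142 from limma). *Mgp*, the matrix Gla protein gene and relative of osteocalcin, was at -0.09 and *Dspp* at -0.10. *Spock3* was not tested.

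Marker lists of other cells in the sample were also examined, without a test of any list as a whole. All 13 erythroid markers were lower on average in LS1 (median -0.54 on the log2 scale), and 2 were called, against 0.0725% of all tested genes. These were *Hba-a2* (-1.42, adjusted p = 0.0291 from limma) and *Hbb-bs* (-0.95, adjusted p = 0.0408), both globin genes. The summed normalized counts of the 13 markers ran from 1836438 to 2382410 in Control and from 980319 to 1201193 in LS1. LS1 replicate 1 had the lowest erythroid median (-0.94 relative to Control), whereas LS1 replicate 3, the lowest in osteocalcin, was at -0.51. Of 14 chondrocyte markers, 13 had higher means in LS1, with a median of 0.49 and 0 called, and their sums ran from 2328230 to 2667373 in Control and from 2942086 to 3526235 in LS1. All 9 megakaryocyte markers (median -0.60) and all 9 tested skeletal muscle markers (median -0.76) had lower means in LS1, with 0 called and with sums that overlapped between the groups. Hypertrophic chondrocyte markers had a median of 0.34, tendon and joint lining markers 0.47, macrophage markers 0.26, neutrophil markers 0.17, endothelial markers 0.08 and osteoclast markers 0.02, with 0 called in each. No marker of any list was at 0 in all libraries. The part of these cell types in the osteocalcin values was not tested.

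The genes whose pattern across the 6 libraries was most like the osteocalcin sum were found by the root mean square difference of centred log2 values, over genes with a mean of at least 100 reads. *Sphkap*, which encodes an anchoring protein of protein kinase A, was the nearest (0.175). It had 449, 387 and 404 normalized counts in Control and 270.4, 234 and 109 in LS1. *Art1* (0.245), *Gm44423* (0.266), *Onecut2* (0.283) and *BC055402* (0.334) followed. For *Bglap3* the nearest were *Bglap* (0.173), whose transcript holds identical stretches, then *Sphkap* (0.212), *Art1* (0.231), *Onecut2* (0.268) and *Nrip3* (0.292). Among the 9 genes, *Dmp1* and *Sparc* (0.178) and *Ibsp* and *Spp1* (0.236) were the next most alike pairs after *Bglap* and *Bglap3*, with *Mepe* and *Sparc* between them (0.233), and *Bglap2* and *Ibsp* were the least alike (1.21). These distances describe 6 shared libraries and carry no test.

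Along chromosome 3, the tested genes beside the osteocalcin cluster had log2 fold changes between -0.36 and 0.51, except *Paqr6*, which ends just beyond the last exon of *Bglap3* on the other strand. *Paqr6* had 85.1 ± 15.3 normalized counts in Control and 44.0 ± 15.8 in LS1 (SD, n = 3), a log2 fold change of -0.99 (adjusted p = 0.310 from limma). *Pmf1*, beyond *Bglap*, was at -0.33 (adjusted p = 0.494 from limma). The pseudogenes *Gm21956* and *Gm6821*, which lie between the osteocalcin genes, had means of 3.17 and 2.17 reads and were not tested.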

How the data were processed

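RNA sequencing of 3 Control and 3 LS1 mice was analysed. The authors mapped the reads to GRCm38 (Ensembl release 84) with HISAT2 2.0.2, counted them per gene with featureCounts 1.4.6 and used DESeq2; a strand setting for the counting is not given in the sources used here. The deposited values are a signal per gene, the count divided by 1 size factor per library. Dividing by the value of 1 read (0.870 to 1.11) gave whole reads for 100% of the values in each library (tolerance 0.01), in all 68803249 to 88745366 reads. Because 1 read was worth 1.01 in Control replicate 1, recovered reads cannot be told from rounded values there, and edgeR was also run without it. This alternative was chosen after seeing the data.

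Genes with a mean of at least 20 reads were tested on log2(value + 1) with limma 3.58.1 (R 4.3.3), using a mean-variance trend, robust moderation and Benjamini-Hochberg adjustment (threshold 0.05). Fold changes on this scale understate the change of low genes. Sums, shares and ratios were compared with exact two-sided permutation tests (scipy 1.17.1), whose smallest p is 0.1. Alternatives were edgeR 4.0.16, DESeq2 1.42.0, other scalings, pseudocounts and filters, a replicate block and each library left out. The scripts were tested on simulated data. Symbols, coordinates and transcripts came from GENCODE M21 (99.1% of identifiers matched), promoters from RefSeq. The genes, their lists and the tests were chosen with earlier results of these data known. Named are the 9 genes, *Dspp*, *Col1a1*, *Col1a2*, every called gene of a list, the 2 largest increases and decreases in each of the 6 bone lists and the 5 nearest patterns. Other names, such as the genes beside the clusters, were chosen after their values were seen. Each of the 9 genes had at least 489 reads in every library, and precision was set mostly by the 3 mice per group.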

Additional observations from a re-analysis of the deposited data

How the results depend on the processing

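The number of genes called at an adjusted p under 0.05 was 14 with limma and depended most on the test, with 459 by DESeq2, 7 by edgeR and 7 by limma without robust moderation. It was 45 with no filter on low counts, 9 with a filter of a mean of 100 reads, and 5 with edgeR without Control replicate 1, an alternative chosen after seeing the data. With 1 library left out it ran from 5 (without Control replicate 2) to 324 (without LS1 replicate 3), with 9 without Control replicate 1 and 46 without LS1 replicate 1. Of the 9 genes followed, DESeq2 called 2 and the fit without LS1 replicate 3 called 1, and leaving out any other library called 0. With 1 library left out, the log2 fold change ran from -1.41 to -0.61 for *Bglap*, from -1.50 to -0.84 for *Bglap3* and from -1.68 to -0.54 for *Bglap2*. Those of *Spp1* (-0.092 to 0.23), *Dmp1* (-0.14 to 0.10) and *Mepe* (-0.079 to 0.15) crossed 0. The log2 fold change ran from 0.19 to 0.56 for *Ibsp* and from -0.66 to -0.13 for *Sost*. The log2 difference of the osteocalcin sum ran from -1.42 to -0.65, and relative to collagen from -1.33 to -0.41. The difference in the share of *Bglap2* ran from -0.79 to 0.46 percentage points, and that of *Sost* relative to collagen from -0.57 to 0.11. Against the median of the osteoblast markers in place of collagen, *Dmp1* was at -0.15, *Mepe* at -0.058 and *Sparc* at -0.21, which turned their signs, and *Spp1* at 0.014. The cause of these changes was not tested. Whether the title letters pair the mice is not known. Deviations of libraries with the same letter correlated at 0.05, 0.02 and 0.22, against -0.15 to 0.12 for different letters. With the letter as a replicate block, 12 genes and 0 of the 9 were called, *Bglap3* having an adjusted p of 0.128 and *Bglap* one of 0.173. An unadjusted limma p under 0.05 was found there for 5 of the 9, the osteocalcin genes, *Ibsp* and *Sost*. Of all 19308 tested genes, 3377 had such a p with the block. Without the block it was 2 of the 9 and 2499 of all.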
